A study of Mus musculus with 5 samples.

Results

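The endocannabinoid system of the mouse central amygdala (CeA) was described from the transcripts of 7 genes, out of 22532 genes counted: the receptor gene Cnr1, the synthesis genes Dagla, Daglb and Napepld, and the breakdown genes Mgll, Abhd6 and Faah. They were chosen by gene name for their roles, and all 7 were found in the count tables. Endocannabinoids are lipids that a neuron releases from its membrane and that act backward on the axon terminals contacting it. There they bind the cannabinoid receptor CB1, a Gi/o-coupled receptor that lowers calcium entry and transmitter release. The main ligands are 2-arachidonoylglycerol (2-AG), made by diacylglycerol lipases, and anandamide, and separate hydrolases end the action of each. In the amygdala the system is known for its part in fear extinction, stress responses and feeding.

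Single-nucleus RNA sequencing (snRNA-seq) was done on CeA tissue microdissected from mice of C57BL6 background, with 3 fed and 2 fasted libraries. Fed replicates 1 and 2 and both fasted replicates came from 8-week-old mice. Fed replicate 3 came from 12-week-old Htr2a-Cre transgenic mice injected with AAV-DIO-mCherry, so that library differs from the others by age, transgene and virus as well. By the labels fasting lasted 20 hours for fasted replicate 1 and 21 hours for fasted replicate 2. Each library pooled brains of a male and a female mouse. The p-values of fasted against fed within a class therefore measure the spread between pooled libraries. In tests across classes, which hold the library as a term, they measure the spread left after library differences are removed, taken over all classes of the fit. By the study, each fasted dataset shared a preparation batch with the fed dataset of the same number, and the remaining fed dataset was a batch of its own. Neither the study nor the labels used here link those dataset numbers to the replicate numbers. They are taken as the same here, with fed replicate 3 as the remaining dataset.

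Nuclei with 500 to 8000 genes and a mitochondrial share under 0.8% were kept, 1130 to 1734 per library and 7161 in all, out of 1694 to 7850 barcodes. Median depth per library ran from 6608 to 16367 unique molecular identifiers (UMIs, each a counted transcript molecule). Only 3 barcode sequences occurred in more than 1 library. The median mitochondrial share was higher in the fasted libraries, at 0.317% and 0.237%, than in the fed libraries, at 0.136%, 0.0788% and 0.0529%. Levels are given as UMIs per 1000000 UMIs (CPM), summed over the nuclei of a class in a library, with the SD over 5 libraries unless stated otherwise.

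Nuclei were assigned to classes by raw UMIs of marker genes, and a class is called here by its gate. Of the 5587 inhibitory nuclei, which held Gad1 or Gad2 UMIs, 307 passed the Prkcd gate alone, 231 the Calcrl gate, 255 the gate on Dnah5 with Vipr2, 184 the Sst gate, 291 the Foxp2 gate, 931 the Rarb gate and 63 the gate on Nkx2-1. A further 2899 passed none of these and are called ungated. Some nuclei that passed more than 1 gate were assigned by rule. Those with Prkcd and Calcrl counted as Calcrl, those with Sst or Prkcd and Dnah5 as Dnah5, and those with Sst and Nkx2-1 as Nkx2-1. The 426 nuclei with any other combination were left out of the classes. Prkcd itself was at 700 CPM in Prkcd, 341 CPM in Calcrl and 89.9 CPM in Dnah5 nuclei. Some genes left out of the gates marked the same classes. Tac2 was at 175 CPM in Dnah5 nuclei and at most 22.5 CPM in the other inhibitory classes. Tshz1 was at 362 CPM in Foxp2 nuclei. Cdh9 was at 341 CPM in Calcrl nuclei and at most 180 CPM in the other inhibitory classes, but at 660 CPM in excitatory nuclei with Slc17a7. Ebf1 was at 1042 CPM in Sst nuclei but also at 547 CPM in Dnah5 nuclei. Other planned checks did not single out their class. Drd2 was at 44.3 CPM in Calcrl against 189 CPM in Rarb nuclei. Rgs9 was at 179 CPM in Rarb against 248 CPM in Dnah5 nuclei, and Ppp1r1b at 39.3 CPM in Rarb against 46.2 CPM in Calcrl nuclei. Other gates held 46 excitatory nuclei with Slc17a7, 384 astrocytes, 152 oligodendrocytes, 79 oligodendrocyte precursors and 77 microglia. Class differences were tested as each class against the mean of the other gated inhibitory classes, with the library as a term (edgeR quasi-likelihood test, Benjamini-Hochberg adjusted over 9497 genes). Classes with fewer than 10 nuclei in a library, namely Nkx2-1, Slc17a7 and microglia, were left out of that test.

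Cnr1, the gene of the CB1 receptor, was graded across the inhibitory classes, and its 3 highest levels among them were in the Prkcd, Calcrl and Dnah5 nuclei. In Prkcd nuclei it was at 197, 234 and 203 CPM in the fed and at 187 and 193 CPM in the fasted libraries. In Calcrl nuclei the corresponding values were 117, 206 and 145, and 129 and 138 CPM. In Dnah5 nuclei they were 111, 121 and 90.1, and 106 and 140 CPM. The Prkcd level was above the Calcrl level in 5 of 5 libraries. Calcrl nuclei were above Dnah5 nuclei in 4 of 5 libraries, by a gap of 33.5 CPM that was smaller than the SD of 34.5 CPM among Calcrl values.

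Against the mean of the other gated inhibitory classes, Cnr1 was 3.01-fold higher in Prkcd nuclei (log2 difference 1.59 ± 0.10, SE, edgeR adjusted p = 6.63e-20). It was also higher in Calcrl nuclei (log2 1.07 ± 0.11) and 1.54-fold higher in Dnah5 nuclei (log2 0.62 ± 0.12). These classes include neurons of the lateral and capsular CeA, among them PKCδ neurons known for aversive and anorexigenic functions and Tac2 neurons linked to appetitive behavior.

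The low end of the Cnr1 scale was formed by the Foxp2 and Rarb gates, which mark intercalated and amygdalostriatal neurons around the CeA. Foxp2 nuclei held 13.5, 26.9 and 31.4 CPM in fed and 35.0 and 31.9 CPM in fasted libraries, 27.8 ± 8.45 on average, and Rarb nuclei held 37.9 ± 10.6 CPM. The log2 differences were -1.80 ± 0.16 for Foxp2 and -1.18 ± 0.11 for Rarb nuclei, and both passed the test. Sst nuclei (62.8 ± 20.4 CPM, log2 -0.30 ± 0.14, edgeR adjusted p = 0.193) and ungated nuclei (72.2 ± 16.7 CPM, log2 -0.18 ± 0.09, edgeR adjusted p = 0.161) lay between and did not pass it. The 46 Slc17a7 nuclei held 110 ± 32.2 CPM, 3.21 CPM below the Dnah5 nuclei, a gap within the spread of either class. Slc17a7 nuclei were above ungated nuclei in 5 of 5 libraries, by 38.2 CPM. Below that, from ungated over Sst, Nkx2-1, Rarb, precursor and Foxp2 nuclei down to the other glia, each class lay closer to the next than the larger of their SDs.

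Glia held little Cnr1. Astrocytes were at 21.7 ± 7.29 CPM, oligodendrocytes at 21.6 ± 9.44 CPM and microglia at 19.5 ± 13.3 CPM, from 35, 11 and 6 UMIs in all. Precursors were at 33.1 ± 24.1 CPM, from 20 UMIs. Rgs9, a striatal-type neuronal gene that no gate used, was at 29.0 CPM in astrocytes, 46.4 CPM in oligodendrocytes and 6.59 CPM in microglia. It was at 105 CPM in precursors and at 170 CPM in inhibitory nuclei. How much of the glial Cnr1 came from free neuronal RNA was not tested.

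**Figure D1:**
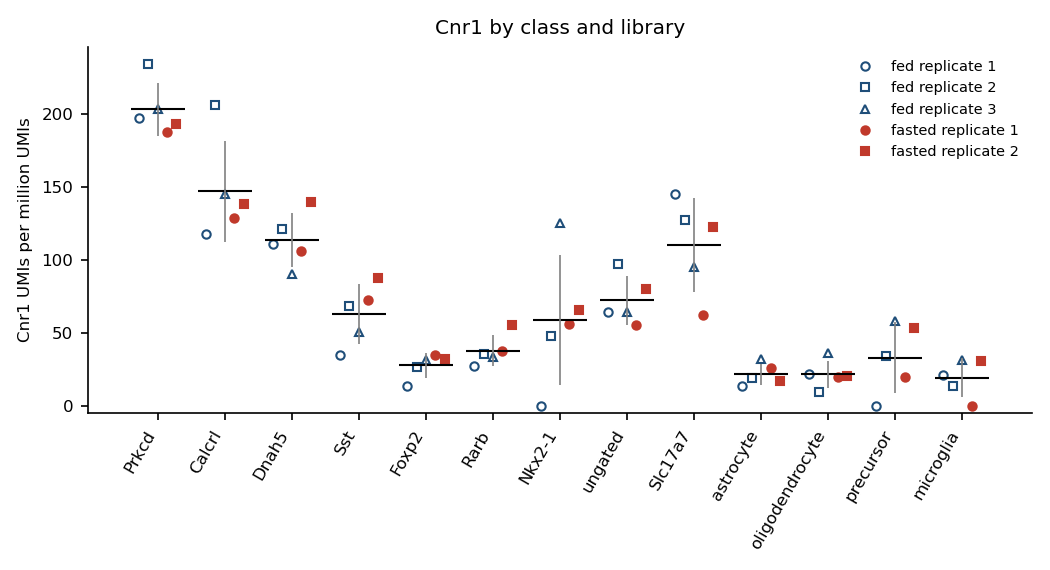
Cnr1 UMIs per 1000000 UMIs (y axis) in 13 classes (x axis), 1 point per library, open for fed and filled for fasted; horizontal bars are means over 5 libraries and vertical lines their SD. The Prkcd points lie between 187 and 234, above every library of the Foxp2, Rarb and Sst classes.

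Per nucleus, the same 3 inhibitory classes led when every nucleus was thinned to 4000 UMIs and shallower nuclei were left out, with Dnah5 and Calcrl in the opposite order and within their spread. The share of nuclei with a Cnr1 UMI was 52.1 ± 5.82% in Prkcd, 41.3 ± 7.72% in Dnah5, 38.3 ± 6.55% in Calcrl and 9.72 ± 4.15% in Foxp2 nuclei. The 46 oligodendrocytes of this depth gave 8.54 ± 10.2%, from 4 nuclei with a Cnr1 UMI, so that the Foxp2 share at this depth lay within their spread. Whether either share is background was not tested. Unthinned shares were 83.4% for Prkcd nuclei (median 14891 UMIs), 21.1% for Foxp2 nuclei (median 11820 UMIs) and 8.04% for oligodendrocytes (median 3168 UMIs).

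The 2-AG synthesis genes differed from each other in where they were found. Dagla, the diacylglycerol lipase held to make most synaptic 2-AG, had a higher mean in every neuronal class than in any glial class. Among inhibitory classes it ran from 51.4 ± 9.63 CPM in Dnah5 to 87.3 ± 19.9 CPM in Rarb nuclei. Over all inhibitory nuclei it was at 94.4, 63.9 and 83.6 CPM in fed and 89.2 and 66.2 CPM in fasted libraries, with replicates numbered 2 the lowest of each group. Rarb nuclei were 1.33-fold above the mean of the other classes (log2 0.42 ± 0.09) and Dnah5 nuclei were lower (log2 -0.52 ± 0.12), and both differences passed the test. A higher level in Calcrl (log2 0.34 ± 0.11, edgeR adjusted p = 0.0197) and a lower one in Foxp2 nuclei (log2 -0.31 ± 0.12, edgeR adjusted p = 0.0460) passed it narrowly. The Calcrl call of Dagla was kept in 8 of 14 alternatives. It was lost without fed replicate 2, without fed replicate 3 or without fasted replicate 2, with log2 differences of 0.26, 0.31 and 0.33, and also without the filter on low counts, with doubled gates and in fed libraries alone (0.33, 0.32 and 0.35). The Foxp2 call was kept in 4 of 14 alternatives. It was lost without any 1 of fed replicates 1, 2 and 3 or fasted replicate 2, at log2 -0.34, -0.32, -0.31 and -0.26, and in 6 further alternatives, down to log2 -0.13 with gates on thinned nuclei (edgeR adjusted p = 0.579). The highest mean was in Slc17a7 nuclei, at 105 ± 19.6 CPM.

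Among glia, Dagla fell to 3.96 ± 5.43 CPM in oligodendrocytes and 11.2 ± 9.16 CPM in precursors, with log2 differences of -3.37 ± 0.43 and -2.60 ± 0.40. Astrocytes held 37.6 ± 9.19 CPM (log2 -0.96 ± 0.18). All of these differences passed the test. Microglia, left out of that test, held 35.7 ± 20.0 CPM of Dagla, from 11 UMIs.

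Daglb, the second diacylglycerol lipase, known from microglia and macrophages, was low and even in neurons. Its mean lay between 13.2 and 30.5 CPM in all neuronal classes, and no inhibitory class passed the test (smallest edgeR adjusted p = 0.0653, Calcrl). The 77 microglia held 380, 269 and 572 CPM in the fed and 245 and 217 CPM in the fasted libraries, and all 5 microglial values lay above all values of every other class. With classes of at least 5 nuclei per library admitted, a setting chosen after the data were seen, the microglial log2 difference was 3.21 ± 0.24 (edgeR adjusted p = 2.53e-20), where 62.2% of the genes tested were called. The microglial fed values of Daglb all exceeded the fasted ones. That difference was not tested, since the lowest library held 5 microglia.

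Mgll, the monoacylglycerol lipase that removes most 2-AG, differed between cell types. Over all inhibitory nuclei its levels were higher in both fasted than in all fed libraries, but no feeding difference passed the main test. Astrocytes had the highest mean, with 315, 427 and 371 CPM in the fed and 532 and 378 CPM in the fasted libraries. Dnah5 nuclei came next by the mean over 5 libraries, at 270, 138 and 94.7 CPM in the fed and 598 and 369 CPM in the fasted libraries. Over the fed libraries alone their mean of 168 CPM was below those of microglia (247 CPM) and precursors (228 CPM). Rarb nuclei held 209, 138 and 122, and 308 and 245 CPM. The lowest class was Foxp2, where no library exceeded 40.2 CPM and none lay under 24.9 CPM.

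The class differences of Mgll passed the test in astrocytes (3.35-fold, log2 1.75 ± 0.15), Dnah5 nuclei (2.52-fold, log2 1.34 ± 0.14), Rarb nuclei (1.86-fold, log2 0.90 ± 0.13), Sst nuclei (log2 -0.56 ± 0.19, edgeR adjusted p = 0.0438) and Foxp2 nuclei (log2 -2.09 ± 0.22). The Sst call of Mgll was kept in 7 of 13 alternatives. It was lost without fed replicate 1, fed replicate 2 or fasted replicate 1, with log2 differences of -0.53, -0.52 and -0.48, and also in fed libraries alone, with the Rarb class split and with at least 5 nuclei per library (-0.59, -0.48 and -0.50). In fed libraries alone the Dnah5 difference still passed, and over all alternatives it ran from log2 0.49 to 1.54. The fed libraries differed among themselves. In fed replicate 1 Dnah5 nuclei (270 CPM) were above Rarb nuclei (209 CPM), and in fed replicate 2 both were at 138 CPM. In fed replicate 3 Dnah5 nuclei (94.7 CPM) were below Prkcd, Calcrl and Rarb nuclei (104, 113 and 122 CPM).

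Pde1c is a mark of neurons of the IPAC, a striatum-like strip beside the CeA. Within the Rarb gate the level of Mgll was higher in nuclei with at least 10 Pde1c UMIs. These 111 nuclei held 723, 363 and 351 CPM in the fed and 715 and 517 CPM in the fasted libraries, against 188, 102 and 79.7, and 279 and 190 CPM in the 820 remaining Rarb nuclei. The values of the 2 parts did not overlap. No test was made, since fed replicate 1 held 6 Pde1c-high nuclei. The Rarb nuclei low in Pde1c still passed the class test for Mgll (log2 0.55 ± 0.14), while with every gate threshold doubled the Rarb difference of Mgll was log2 0.11 (edgeR adjusted p = 0.696).

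Abhd6, a membrane hydrolase that removes a smaller part of the 2-AG, was the flattest member. Its mean ran from 71.1 to 102 CPM over the neuronal classes, and over all inhibitory nuclei the libraries lay between 84.5 and 103 CPM. Among inhibitory classes only Rarb nuclei passed the test (1.23-fold, log2 0.30 ± 0.09). That call was kept in 11 of 14 alternatives and lost for Abhd6 with doubled gates, with gates on thinned nuclei and in fed libraries alone, at log2 0.23, 0.22 and 0.29. Precursors (31.4 ± 21.6 CPM), oligodendrocytes (49.4 ± 18.3 CPM) and astrocytes (55.2 ± 9.50 CPM) were lower, with log2 differences of -1.48, -1.16 and -0.68 that passed the test.

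Napepld, which makes anandamide and related amides from N-acyl phosphatidylethanolamine, was scarce. All inhibitory nuclei together held 272 Napepld UMIs, or 3.41 ± 0.502 CPM. Foxp2 nuclei were the exception among the tested inhibitory classes, with 27.1, 8.29 and 12.2 CPM in the fed libraries and, in the fasted libraries, values from 13.2 CPM upward that stayed under fed replicate 1. Every Foxp2 value exceeded every value of the Prkcd, Calcrl, Dnah5, Sst, Rarb and ungated classes.

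The Foxp2 difference was log2 3.31 ± 0.35 (edgeR adjusted p = 1.37e-11), from 50 Napepld UMIs in 291 nuclei. Oligodendrocytes (110, 38.0 and 12.0, and 20.1 and 25.8 CPM) and precursors were also higher, by log2 4.00 ± 0.48 and 2.70 ± 0.70, but from 20 and 7 UMIs. Calls in ungated (log2 0.72 ± 0.27, edgeR adjusted p = 0.0424) and Dnah5 nuclei (2 UMIs in all) were weak. The ungated call of Napepld was kept in 5 of 11 alternatives. It was lost without fed replicate 1, fed replicate 3 or fasted replicate 1, at log2 0.68, 0.72 and 0.70, and also without the filter, in fed libraries alone and with the Rarb class split (0.75, 1.02 and 0.70). The Dnah5 call was kept in 4 of 11. It was lost without any 1 of fed replicates 1, 2 and 3 or fasted replicate 1, at log2 -1.90, -1.65, -1.58 and -1.79, and also without the filter, with DESeq2 and in fed libraries alone.

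Faah, the fatty acid amide hydrolase that breaks down anandamide, was highest in excitatory nuclei. The 46 Slc17a7 nuclei held 197, 201 and 261 CPM in the fed and 250 and 255 CPM in the fasted libraries, and every one of these values lay above all values of the other classes. With at least 5 nuclei per library admitted, their log2 difference was 2.11 ± 0.15 (edgeR adjusted p = 1.37e-19), where 25.1% of genes were called. Among inhibitory classes Faah ran opposite to Mgll at both ends. It was higher in Foxp2 nuclei (77.8 ± 12.2 CPM, log2 0.59 ± 0.14) and lower in Dnah5 nuclei (34.4 ± 5.12 CPM, log2 -0.83 ± 0.17). Rarb (log2 0.34 ± 0.11) and ungated nuclei (log2 0.33 ± 0.10) were also higher, and the differences of all 4 classes passed the test. The Foxp2 call of Faah was kept in 12 of 14 alternatives and lost without fasted replicate 2 (log2 0.44, edgeR adjusted p = 0.0521) and in fed libraries alone (log2 0.40, edgeR adjusted p = 0.121). The Rarb call was kept in 11 of 14 and lost with doubled gates, with gates on thinned nuclei and in fed libraries alone, at log2 0.43, 0.32 and 0.38.

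Oligodendrocytes held 69.3 ± 21.2 CPM of Faah, not distinguishable from the inhibitory mean, whereas astrocytes and precursors were lower (log2 -1.78 ± 0.28 and -2.10 ± 0.49). Microglia held no Faah UMI among 331322, which allows a level of up to 9.05 CPM by counting error.

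**Figure D2:**
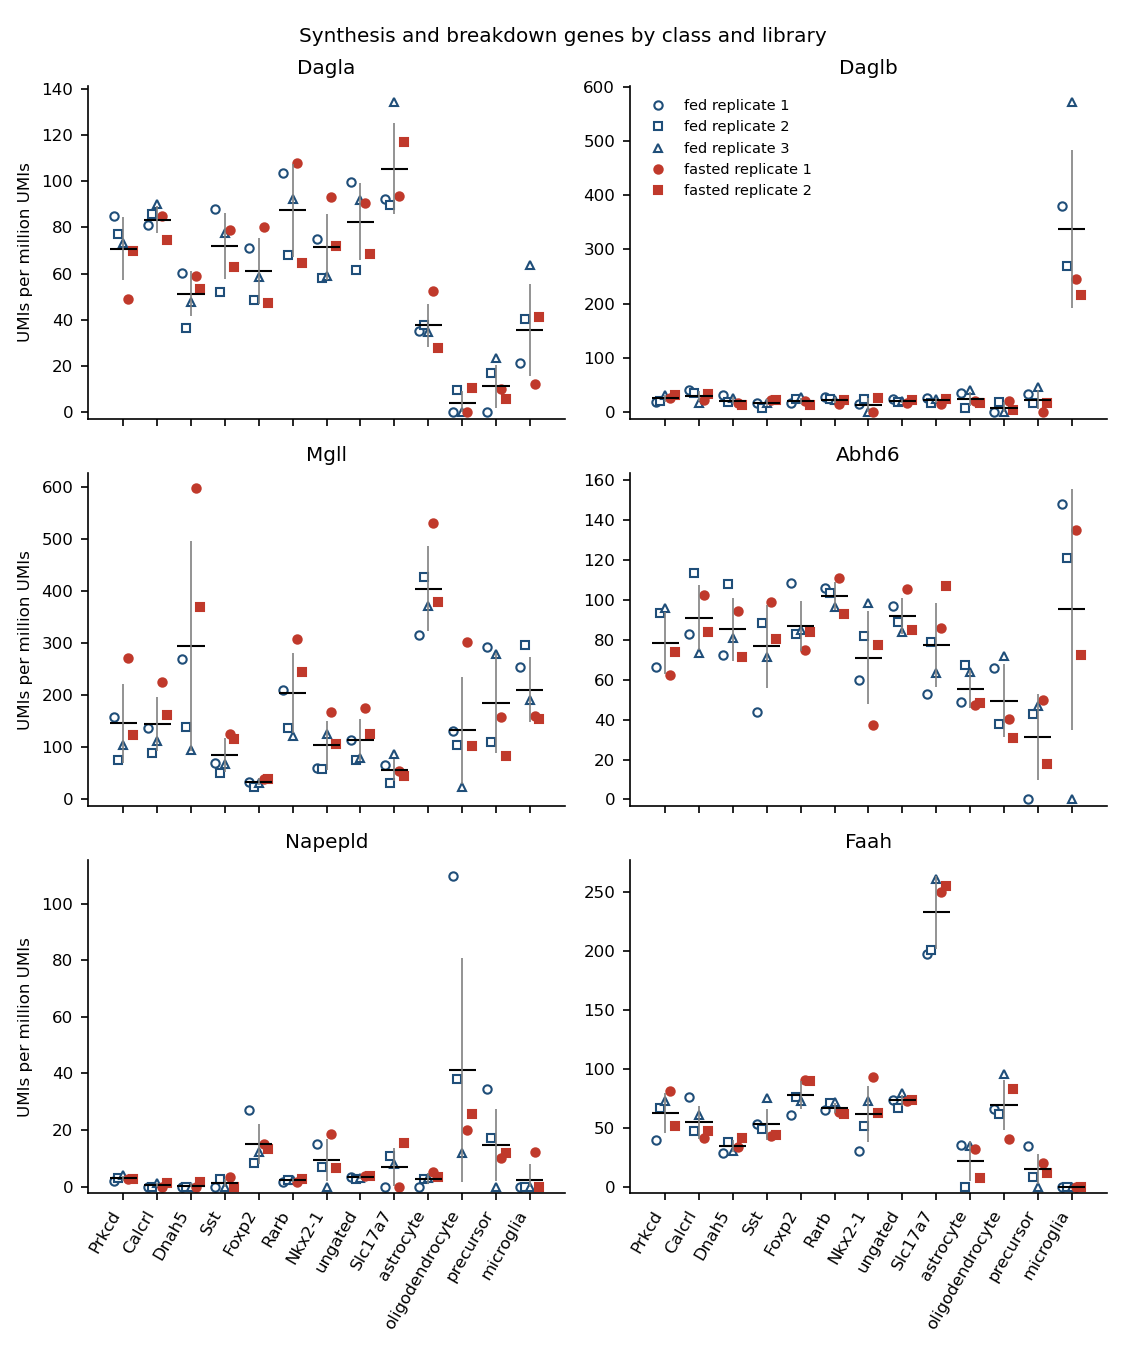
UMIs per 1000000 UMIs (y axes, each with its own scale) of the 6 enzyme genes in 13 classes (x axis), 1 point per library, open for fed and filled for fasted, with the mean over 5 libraries as a bar and its SD as a line. Daglb stands out in microglia (217 to 572), Mgll in astrocytes and Dnah5 nuclei, Napepld in oligodendrocytes and Foxp2 nuclei, and Faah in Slc17a7 nuclei (197 to 261).

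By class, 1 of the 7 members was called in Prkcd nuclei, where 28.3% of all genes tested were called, 2 in Calcrl (17.5%), 5 in Dnah5 (23.9%), 1 in Sst (13.4%), 5 in Foxp2 (25.9%), 5 in Rarb (21.1%) and 2 in ungated nuclei (25.3%). In glia 5 were called in astrocytes (59.8%), 4 in oligodendrocytes (44.7%) and 5 in precursors (37.7%). In Dnah5, Foxp2 and Rarb nuclei the called share of the members was above that of all genes. In Prkcd, Calcrl, Sst and ungated nuclei it lay near the background. The counts include Napepld in Dnah5 nuclei (kept in 4 of 11 alternatives) and Dagla in Foxp2 nuclei (4 of 14). The members were chosen with earlier results of these data known, so these shares describe the 7 genes and test nothing about them as a set.

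Of 37 further genes of the pathway, held in a list of receptors, CB1 partners and effectors, drivers of 2-AG synthesis, other enzymes and lipid carriers, 26 were tested across classes. The list was not tested as a set, and the share of all tested genes called is given beside each count. In Prkcd nuclei 3 were higher and 5 lower, where 28.3% of all genes were called. The list median was log2 -0.01 against 0.00 over all genes. Cnrip1, which binds the CB1 tail, was higher there (log2 0.55 ± 0.11), as was Cacna1a, a presynaptic calcium channel that CB1 restrains (log2 0.43 ± 0.10). The potassium channel gene Kcnj6 (log2 -2.12 ± 0.23) and the IP3 receptor gene Itpr1 (log2 -1.96 ± 0.17) were lower.

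In Dnah5 nuclei 5 list genes were higher and 4 lower, of 26 tested, where 23.9% of all genes were called. Gnai1, which encodes a Gi alpha subunit, was higher (log2 1.03 ± 0.11), as was Sgip1, whose protein keeps CB1 at the cell surface (log2 0.28 ± 0.07). Pla2g4e, an N-acyltransferase upstream of Napepld, was lower (log2 -1.28 ± 0.27), as was Kcnj6 (log2 -1.09 ± 0.22).

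Foxp2 nuclei had 6 list genes higher and 2 lower, where 25.9% of all genes were called. Kcnj6 (log2 2.92 ± 0.14) and Plcb4 (log2 1.62 ± 0.14) led, and Cnrip1 was lower (log2 -0.40 ± 0.13). Rarb nuclei had 6 higher and 3 lower (21.1% of all genes), with Itpr1 at log2 1.47 ± 0.11 and Plcb4 at log2 -1.31 ± 0.15. Calcrl nuclei had 0 higher and 3 lower (17.5%), Sst nuclei 2 higher and 1 lower (13.4%), and ungated nuclei 7 higher and 3 lower (25.3%). In astrocytes 10 were higher and 15 lower (59.8%). Among the higher were Ppara (log2 8.62 ± 0.28), a nuclear receptor for anandamide-related amides, and the lipid carriers Fabp7 (log2 3.74 ± 0.53) and Fabp5 (log2 2.84 ± 0.27). Oligodendrocytes had 3 higher and 13 lower (44.7%), and precursors 4 higher and 13 lower (37.7%).

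The second question was whether the system differed between fed and fasted mice. Over all inhibitory nuclei 6 of the 7 members showed log2 fold changes between -0.21 and 0.15 that did not pass the edgeR test. The receptor gene Cnr1 was at 69.2, 89.3 and 70.8 CPM in fed and 61.5 and 82.9 CPM in fasted libraries, so that the groups overlapped (log2 -0.10, 95% interval -0.48 to 0.27). Faah was the steadiest over this sum, at 66.1, 64.0 and 71.1 against 67.0 and 66.2 CPM (log2 -0.03, 95% interval -0.30 to 0.24). By class it was less even. In Foxp2 nuclei Faah was at 60.9 to 75.7 CPM in fed and 89.3 to 90.1 CPM in fasted libraries. In Sst nuclei it was at 49.1 to 75.4 CPM in fed and 42.8 to 43.9 CPM in fasted libraries. For Dagla the interval was -0.52 to 0.39, for Daglb -0.58 to 0.16, for Abhd6 -0.30 to 0.33 and for Napepld -0.44 to 0.73.

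Mgll was the member that moved most. Over all inhibitory nuclei it was at 133, 90.0 and 91.7 CPM in fed and at 222 and 156 CPM in fasted libraries, and both fasted libraries lay above all fed ones. The fold was 1.79 (95% interval 1.27 to 2.52; log2 0.84 ± 0.22; unadjusted p = 0.00407 by the edgeR quasi-likelihood test). It did not pass the adjusted threshold (edgeR adjusted p = 0.409), where 1 of 13453 genes was called (0.00743%) and 698 had an unadjusted p under 0.05. With the replicate number as a block, Mgll passed (log2 0.74 ± 0.08, edgeR adjusted p = 1.68e-08). The block compares same-numbered libraries, taken as 1 preparation batch, and leaves 1 residual degree of freedom. In that fit 401 of 13911 genes were called (2.88%). Mgll also passed with the edgeR likelihood ratio test (1.07% of genes called), with DESeq2 (0.647%) and without the filter on low counts (0.671%). Between same-numbered libraries the fasted level was 1.67-fold the fed level for those numbered 1 and 1.73-fold for those numbered 2.

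**Figure D3:**
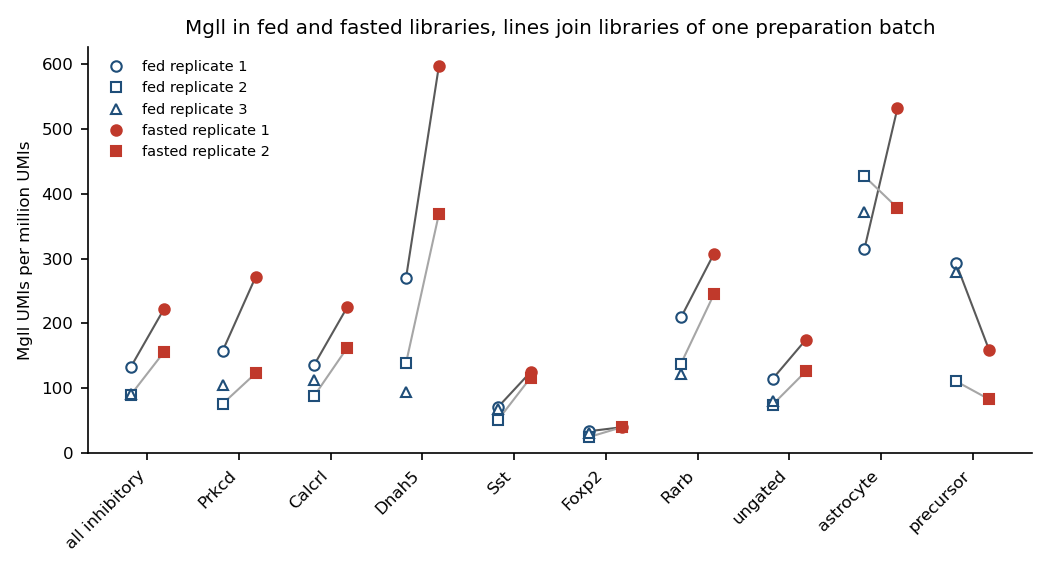
Mgll UMIs per 1000000 UMIs (y axis) in 10 sets of nuclei (x axis), open points for fed and filled points for fasted libraries. Lines join libraries of the same replicate number, taken as 1 preparation batch. All lines rise in the inhibitory classes, from the smallest step in Foxp2 to the steepest in Dnah5 nuclei, and both fall in precursors.

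By class, the log2 fold change of Mgll was positive in all 7 inhibitory classes tested, from 0.41 in Foxp2 to 1.55 in Dnah5 nuclei, and none passed the main test. In Dnah5 nuclei the fold was 2.92 (95% interval 1.80 to 4.74; log2 1.55 ± 0.33; unadjusted p = 0.000273, edgeR adjusted p = 0.0964), where 8 of 7434 genes were called (0.108%) and 590 had an unadjusted p under 0.05. Both fasted libraries exceeded all fed ones, and the folds between same-numbered libraries were 2.22 and 2.67. With the replicate block Mgll passed in Dnah5 nuclei (log2 1.23 ± 0.18, edgeR adjusted p = 2.41e-08, 1.76% of genes called). The likelihood ratio test of edgeR, the form used in the study, also called it there (edgeR adjusted p = 0.00371, 0.969% of genes called), while DESeq2 did not (DESeq2 adjusted p = 0.807). Doubled gates (0.262%), gates on thinned nuclei (0.720%) and the fit without a filter (0.782%) called it too, the last also in Rarb (0.620%) and ungated nuclei (0.742%).

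Of all genes tested, 0.113% were called in Prkcd, 0.0799% in Foxp2, 0.00941% in Rarb and 0.00808% in ungated nuclei, and 0% in Calcrl and Sst nuclei, where 449 and 255 genes had an unadjusted p under 0.05. In Rarb nuclei Mgll was at log2 0.85 ± 0.22 (edgeR adjusted p = 0.606), in Sst nuclei at 0.97 ± 0.27 (0.988), in Calcrl nuclei at 0.77 ± 0.24 (0.484), in Prkcd nuclei at 0.74 ± 0.30 (0.675) and in ungated nuclei at 0.73 ± 0.21 (0.506), the values in parentheses being edgeR adjusted p. Fed and fasted values overlapped in Prkcd nuclei, where fed replicate 1 (157 CPM) exceeded fasted replicate 2 (123 CPM), and in no other of the 7. The classes share the same libraries, and how often such separation occurs over all genes was not counted, so no feeding effect is read from it. The block called Mgll also in Prkcd (edgeR adjusted p = 0.0429, 1.08% of genes called), Rarb (1.17e-05, 1.43%) and ungated nuclei (1.78e-09, 3.23%), but not in Calcrl (0.133), Sst (0.164) or Foxp2 nuclei (0.997).

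Outside the inhibitory nuclei the direction varied and no class passed the test. Astrocytes had a log2 fold change of Mgll of 0.27 ± 0.26 and oligodendrocytes one of 0.99 ± 0.63 (edgeR adjusted p = 0.876), with fed and fasted values overlapping in both, and precursors one of -0.89 ± 0.42 (unadjusted p = 0.0380, edgeR adjusted p = 0.694). Of all genes, 0.163% were called in astrocytes, 0% in oligodendrocytes, where 143 had an unadjusted p under 0.05, and 0.569% in precursors. In microglia, which were not tested, the fed values of 254, 296 and 191 CPM lay above the fasted values of 160 and 155 CPM.

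**Figure D4:**
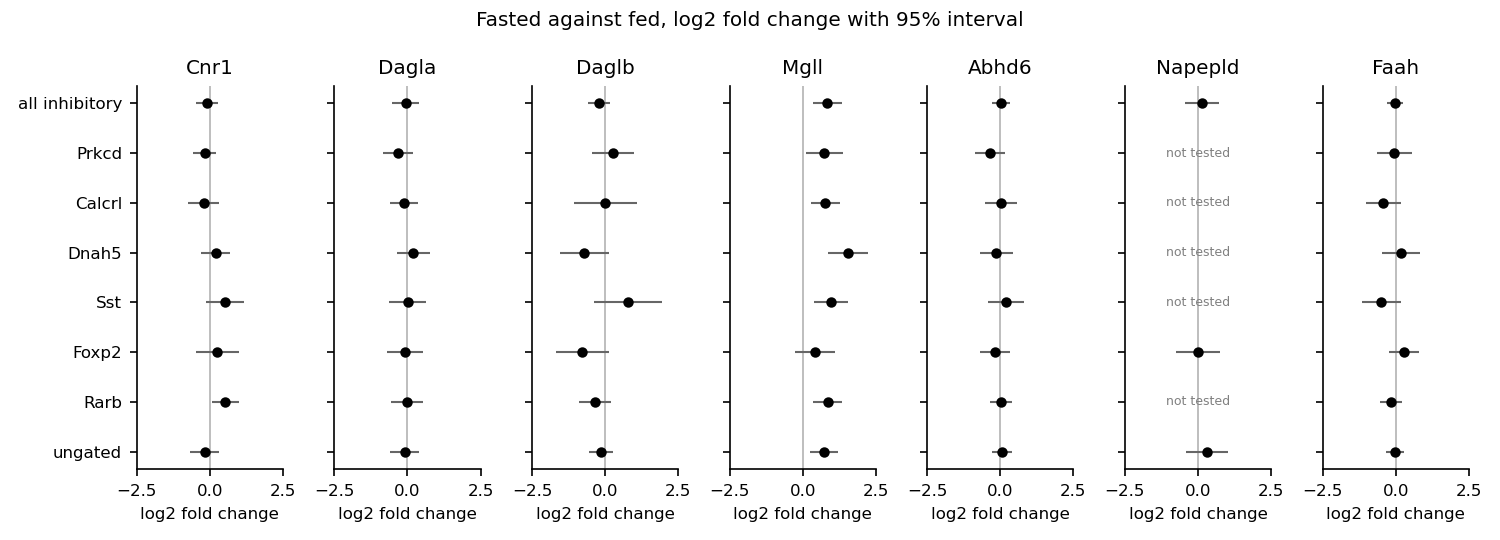
Log2 fold change of fasted against fed libraries (x axes) with its 95% interval (lines) for the 7 members in all inhibitory nuclei and 7 classes (y axis); genes too low for the test are marked as not tested. Mgll lies right of 0 in every row, with Dnah5 nuclei farthest out at 1.55, while the points of the other members lie within 0.78 of 0.

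The mitochondrial share of the libraries moved with Mgll. In all inhibitory nuclei the median mitochondrial share was 0.293% and 0.197% in the fasted and 0.119%, 0.0601% and 0.0447% in the fed libraries, nearly the order of the Mgll levels. Among nuclei with a mitochondrial share of 0.1 to 0.4%, Mgll was at 221 and 159 CPM in the fasted and 125, 66.4 and 77.4 CPM in the fed libraries. There the log2 fold change was 1.09 ± 0.25 (edgeR adjusted p = 0.506), against 0.84 ± 0.22 without the restriction. The window was chosen after the values were seen, and how much the mitochondrial share adds to the difference was not tested. Under 0.1%, with 52 nuclei in fasted replicate 1, the values were 266 and 152 against 138, 104 and 96.8 CPM. Within single classes the order did not always hold. In Rarb nuclei under 0.1%, fasted replicate 2 (164 CPM) lay below fed replicates 1 and 2 (195 and 166 CPM). In Dnah5 nuclei at 0.4% and over, fasted replicate 2 (266 CPM, 6 nuclei) lay below fed replicate 1 (405 CPM, 5 nuclei). In the other windows of Dnah5 and Rarb nuclei both fasted libraries lay above all fed ones.

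In the mitochondria-rich barcodes that the filter removed, Mgll was at 266 and 201 CPM in the fasted and 229, 135 and 118 CPM in the fed libraries, and there fed replicate 1 exceeded fasted replicate 2. Foxp2 nuclei of the same libraries stayed at or under 40.2 CPM. How much free RNA adds to the difference in the other classes was not tested.

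**Figure D5:**
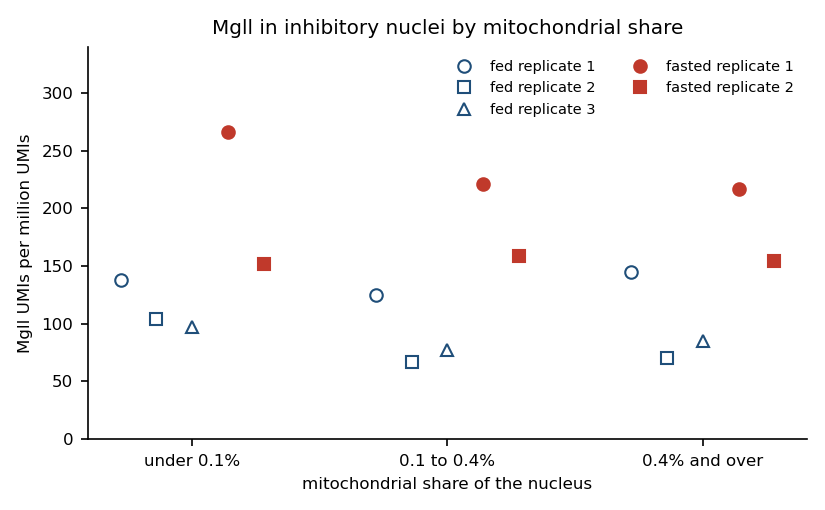
Mgll UMIs per 1000000 UMIs (y axis) in inhibitory nuclei split by their mitochondrial share (x axis), 1 point per library, open for fed and filled for fasted. In this sum over all inhibitory nuclei, both fasted libraries lie above all fed libraries in each of the 3 windows.

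Leaving out single libraries changed the Dnah5 result for Mgll. Without fed replicate 1 (log2 2.01, edgeR adjusted p = 0.00168, 0.483% of genes called) or fasted replicate 2 (log2 1.87, edgeR adjusted p = 0.0249, 0.235%) it passed the test, and without fed replicate 3, the Htr2a-Cre library, it was log2 1.21 (edgeR adjusted p = 0.670). In Prkcd nuclei Mgll passed without fasted replicate 2 (log2 1.32, 0.313%) and was at log2 0.14 without fasted replicate 1. Over all inhibitory nuclei it was at log2 0.51 without fasted replicate 1. With 1 fasted library left, that library was assumed to vary like the fed ones.

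No other member passed in any class. The smallest edgeR adjusted p was 0.919 for Cnr1, 0.927 for Dagla, 0.735 for Daglb, 0.918 for Abhd6 and 0.940 for Faah. Cnr1 in Rarb nuclei was at 27.1, 35.5 and 33.6 CPM in fed and 37.5 and 55.5 CPM in fasted libraries, which did not overlap (log2 0.53 ± 0.21, unadjusted p = 0.0274, edgeR adjusted p = 1.00). The Cnr1 values of Sst and Foxp2 nuclei were likewise higher in both fasted libraries than in any fed one (log2 0.51 and 0.26). Fed replicate 1 held only 4 Cnr1 UMIs in each of these classes. In Foxp2 nuclei the nearest values were 31.4 CPM (fed replicate 3) and 31.9 CPM (fasted replicate 2). In Prkcd nuclei the fed values of Cnr1 were all above the fasted values, with a smaller log2 change (-0.18 ± 0.19). Fed and fasted values of other members also did not overlap in some classes, in either direction. Among inhibitory classes these were Faah in Calcrl, Sst, Foxp2 and Rarb, Daglb in Dnah5, Sst and Rarb, Dagla in Prkcd and Napepld in ungated nuclei. Outside them they were Abhd6 in Slc17a7 nuclei and astrocytes, Napepld in astrocytes and Daglb in microglia. How often such separation occurs over all genes was not counted for any member, so no feeding effect is read from it. Daglb had log2 changes from -0.78 in Foxp2 (95% interval -1.68 to 0.13) to 0.78 in Sst nuclei (-0.39 to 1.94). Napepld was abundant enough for a test in Foxp2 and ungated nuclei alone.

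Whether the fasting effect differed between the inhibitory classes was tested with an interaction term. Of 9717 genes, 0 passed the edgeR test (0%), 616 had an unadjusted p under 0.05, and the DESeq2 likelihood ratio test called none of the members. The members with the smallest values were Cnr1 (unadjusted p = 0.00364, edgeR adjusted p = 0.453) and Mgll (unadjusted p = 0.00983, edgeR adjusted p = 0.623). Without the filter on low counts Mgll was called (edgeR adjusted p = 0.0157), where 271 of 17922 genes were called, and in no other alternative run. A difference of the Mgll step between classes thus rests on that setting.

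The pathway list held no call for feeding in the edgeR quasi-likelihood test. Of 30 genes tested over all inhibitory nuclei 0 rose and 0 fell, with a median log2 change of 0.00 against -0.01 over all genes, and 2 had an unadjusted p under 0.05. The smallest p-values belonged to Fabp5, a fatty acid carrier (log2 0.75 ± 0.28, unadjusted p = 0.0241, edgeR adjusted p = 0.761), and Pla2g4e (log2 -0.39 ± 0.14, unadjusted p = 0.0250, edgeR adjusted p = 0.770). In Dnah5 nuclei 22 were tested, and those with the smallest p were Itpr1 (log2 0.46 ± 0.18) and Gnai1 (log2 -0.54 ± 0.22). In every class tested the list held 0 calls in either direction.

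In fed replicate 3, 405 inhibitory nuclei held an mCherry UMI, which marks neurons with Htr2a-Cre activity and virus, and 811 did not. Cnr1 was at 70.4 CPM with (95% counting interval 64.3 to 76.9) and 71.0 CPM without mCherry (66.4 to 75.9). Mgll was at 89.9 against 92.7 CPM and Dagla at 83.3 against 83.7 CPM. The gaps were larger for Abhd6, at 81.7 (75.2 to 88.7) against 90.5 CPM (85.3 to 96.0), and Faah, at 66.8 (60.9 to 73.2) against 73.6 CPM (68.8 to 78.5). These values come from 1 library and the intervals cover counting error alone, so no test was made.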

How the data were processed

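The authors deposited UMI counts per gene and barcode (10x Genomics, 1 matrix per library), unnormalized. By the study's methods and the matrix headers, reads including introns were counted with Cell Ranger against GRCm39 with Cre and mCherry sequences added, whereas the submitters' processing notes name Cell Ranger 2.1.1 and mm10. No coordinates are given here. Strandedness of counting was not given in the sources used here.

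Nuclei were gated on raw marker UMIs, with thresholds of 1 to 15 UMIs set from the marker distributions: 1 Gad1 or Gad2 UMI for inhibitory nuclei, 5 for Prkcd, 3 for Calcrl, 2 for Dnah5 with 1 for Vipr2, 3 for Sst, 5 for Foxp2, 5 for Rarb, and for glia marker panels with at most 1 Gad1 or Gad2 UMI. The microglial markers include Cx3cr1 and Csf1r. Scrublet called 70 nuclei (0.978%) as doublets, and they were kept. The members and lists were chosen with earlier results of these data known. All 7 members are named. Of the pathway list, values are given for genes past the test or, where there are none, the 2 with the smallest p.

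UMIs were summed per class and library, filtered by filterByExpr, scaled by TMM and tested with edgeR 4.0.16 (quasi-likelihood) in R 4.3.3, with an adjusted p of 0.05 as the threshold. DESeq2 1.42.0, the edgeR likelihood ratio test, other gates, scaling and filters, leaving out each library and a replicate block were alternatives, 18 settings in all. Fits were tested on simulated data first. Pairing was checked: same-numbered libraries were taken to share a preparation batch, as the study's same-numbered datasets did. Their deviations from the group mean correlated at 0.347 and 0.535 over all inhibitory nuclei, and at 0.0851 and 1.9e-04 in astrocytes. The deviations of the 2 fasted libraries mirror each other, so the values of a set are not independent. Same-numbered libraries were also alike in depth, so the check cannot tell batch from depth. Thinning used 4000 UMIs. Kept UMIs per library ranged from 9763452 to 29703855, and counting intervals cover counting error alone.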

Additional observations from a re-analysis of the deposited data

How the results depend on the processing

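The 35 class differences of members kept their direction under every alternative run, and 26 kept their side of the threshold under all of them. The number called stayed between 28 and 36 where all 10 classes could be fitted. Under fasting, 0 members were called over all inhibitory nuclei, against 1, Mgll, without the filter on low counts, with the DESeq2 test, with the likelihood ratio test and with the replicate block. By class, 0 became 3 without the filter (Dnah5, Rarb, ungated), 4 with the replicate block, and 1 with the likelihood ratio test, with doubled gates and with gates on thinned nuclei (each Dnah5). Leaving out 1 library gave 0 to 2. For the difference between classes, 0 became 1 (Mgll) without the filter. The cause was not tested. Over all inhibitory nuclei the genes called rose from 1 to 401 with the block, 144 with the likelihood ratio test, 121 without the filter and 94 with DESeq2. In Dnah5 nuclei they went from 8 to 144, 72, 114 and 17. The block changed no call of another member. Doubled gates, gates on thinned nuclei and the 2000-gene minimum left some classes with fewer than 10 nuclei in a library, and these could not be fitted. Depth limits Napepld most, with 272 UMIs in all inhibitory nuclei. In a class sum, fewer expressing nuclei and less RNA per nucleus cannot be told apart.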

Other observations

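Of the 5 nuclei with the most Cnr1 UMIs, 3 passed no inhibitory class gate. Of 5 nuclei with at least 20 Cnr1 UMIs, a limit chosen after the values were seen, 4 also held 331 to 1651 UMIs of Adarb2, a gene of cortical-type interneurons, of which the median inhibitory nucleus held 0. The 2 highest, with 72 and 56 Cnr1 UMIs (1777 and 943 CPM), were ungated nuclei of fed replicate 2 with 122 and 147 UMIs of Col19a1. The fifth passed the Prkcd gate with 21 Cnr1 UMIs. In all, 112 inhibitory nuclei held at least 100 Adarb2 UMIs, and their Cnr1 level was 113 CPM against 75.6 CPM in the others. The 112 include the 4 nuclei picked above for their Cnr1, which held 72, 56, 24 and 24 of the group's 330 Cnr1 UMIs. The higher level thus rests largely on those 4 nuclei. By library the level of the 112 ranged from 13.7 CPM (fasted replicate 1, 12 nuclei) to 190 CPM (fed replicate 2, 27 nuclei). No difference between the 112 and the others, between libraries or between groups is read from these values.

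Over the means of 13 classes, which share libraries and differ in depth, the genes most like each member among 7172 genes with at least 20 CPM were listed by Pearson correlation of log2(CPM + 1). For Cnr1 they were Ptprn (r = 0.911), Tent4a (0.895) and Dgkg (0.890). For Mgll they were Ppp2r1a (0.811), Pdlim5 (0.788) and Ccdc191 (0.756). For Faah they were Wdr7 (0.984), Osbp2 (0.974) and Etnk1 (0.973), for Daglb Rcbtb2 (0.977), Xbp1 (0.976) and Mtr (0.971), and for Napepld Clip2 (0.899), Sytl2 (0.847) and Rabgap1 (0.842). Dagla went with Ddx41 (0.957) and Abhd6 with Srsf9 (0.947). Among the members themselves Dagla and Abhd6 were the closest pair (0.756), and Faah and Daglb ran opposite (-0.842), with microglia at one end of that pattern.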
